A study of Mus musculus with 3 samples.

Results

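The 74 genes described here were chosen by name as genes for proteins of the mitochondrial ribosome. They are the genes whose annotated symbol starts with Mrpl or Mrps followed by a digit and that have at least 1 probe set assigned to a single gene, out of 12393 named genes. Of them, 47 are Mrpl genes and 27 are Mrps genes. Mrps36, known as a subunit of another complex, is counted in all values for the 74 genes. RefSeq lists 78 protein-coding mouse genes with such symbols. Mrpl30 and Mrpl53, read only by probe sets shared with another gene, and Mrps10 and Mrps27 were not analysed here. The study profiled RAW264.7 cells, an established mouse macrophage line, before lipopolysaccharide (LPS) and after 2 and 12 h of it. LPS, a bacterial surface glycolipid, activates macrophages through Toll-like receptor 4; its dose is not given in the labels used here. Total RNA of each time was measured on 1 Affymetrix-type array, 3 arrays in all, and the labels name no genetic change. There is no untreated array at 2 or 12 h, so LPS and time in culture cannot be told apart.

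The mitochondrial ribosome translates the few proteins encoded by mitochondrial DNA, all of them subunits of the respiratory chain and ATP synthase. Its RNAs come from mitochondrial DNA, whereas its proteins are encoded in the nucleus, made in the cytosol and imported. Some proteins have counterparts in the bacterial ribosome and others were added in the mitochondrial lineage. In macrophages LPS is known to shift energy metabolism towards glycolysis, which makes the nuclear genes behind the respiratory chain of interest.

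Signals are the deposited linear intensities after rescaling, and a floor at the 40th percentile of all values, a signal of 34.96, separated measured from low signals. A gene read by several probe sets was represented by the brightest. With 1 array per time the conditions could not be tested, so a gene was called higher or lower when its signals were at least 2-fold apart. The only error these arrays hold is how far probe sets of a gene differ. Their log2 differences from 0 h had an SD of 0.32 at 2 h and 0.34 at 12 h over all named genes, and the SD was 0.31 from 2 to 12 h. Among the mitochondrial ribosomal genes it was 0.29, 0.25 and 0.24. Error between cultures was not measured, and in such bulk RNA fewer cells with a transcript and less of it per cell cannot be told apart. All 12 macrophage markers examined were above the floor on every array, at signals from 168 (Itgam at 0 h) to 6308 (Lyz2 at 12 h). Of markers of other cell types, those of T cells (4 genes) and B cells (3 genes) were all under the floor on every array, and 1 of 5 fibroblast, 1 of 5 epithelial and 1 of 4 endothelial markers was above it on each array, the highest signal being 76.3 for Kdr.

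All 74 genes were above the floor on all 3 arrays. Of all named genes, 65.5% were above it at 0 h, 63% at 2 h and 65.9% at 12 h. The lowest, median and highest signals among the 74 were 116, 339 and 858 at 0 h, 81.8, 295 and 741 at 2 h, and 107, 326 and 758 at 12 h. The lowest signal was still above the floor at every time, so each gene has a measured difference in every comparison and none is a bound.

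None of the 74 genes was at least 2-fold higher or lower in any of the 3 comparisons. Over all measured genes the share at least 2-fold higher was 2.09% and lower 1.68% at 2 h. At 12 h these shares were 3% and 2.39%, and from 2 to 12 h they were 2.65% and 1.97%. The 0 of 74 lies under each of these shares, but with shares this small few of 74 genes would be called. The gap was not tested. At 1.5-fold, 1 gene was higher and 5 were lower at 2 h than at 0 h, where 5.59% and 9.63% of all measured genes were. At 12 h, 2 were higher and 6 lower than at 0 h, against 8.27% and 10.3% of all genes. From 2 to 12 h, 3 were higher and 1 lower, against 10.1% and 6.44%.

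The differences of the 74 genes were small and lay mostly below 0. The median log2 difference from 0 h was -0.16 at 2 h and -0.12 at 12 h, and from 2 to 12 h it was 0.024. The medians over all measured genes were -0.10, -0.048 and 0.050. Relative to all genes the shift was therefore -0.055, -0.070 and -0.026, and these arrays give no error for a median over genes. The 4089 other named genes with mean signals inside the range of the 74 had medians of -0.077, -0.070 and 0.0050. Beside these, the median of the 74 genes was lower at both times against 0 h and higher from 2 to 12 h. Setting the arrays to one median moved the median of all genes from -0.10 to 0.030 for 2 h against 0 h, and the median of the 74 genes to -0.015. The shift relative to all genes stayed below 0 in every alternative for both times against 0 h, from -0.10 to -0.033 at 2 h and from -0.092 to -0.055 at 12 h. For 12 h against 2 h it changed sign, from -0.053 to 0.039. At 2 h, 53 of the 74 genes (71.6%) had a signal below that at 0 h, as did 62.4% of all measured genes. At 12 h the numbers were 54 of 74 (73%) and 54.7%. The 2 comparisons share the 0 h array.

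**Figure D1:**
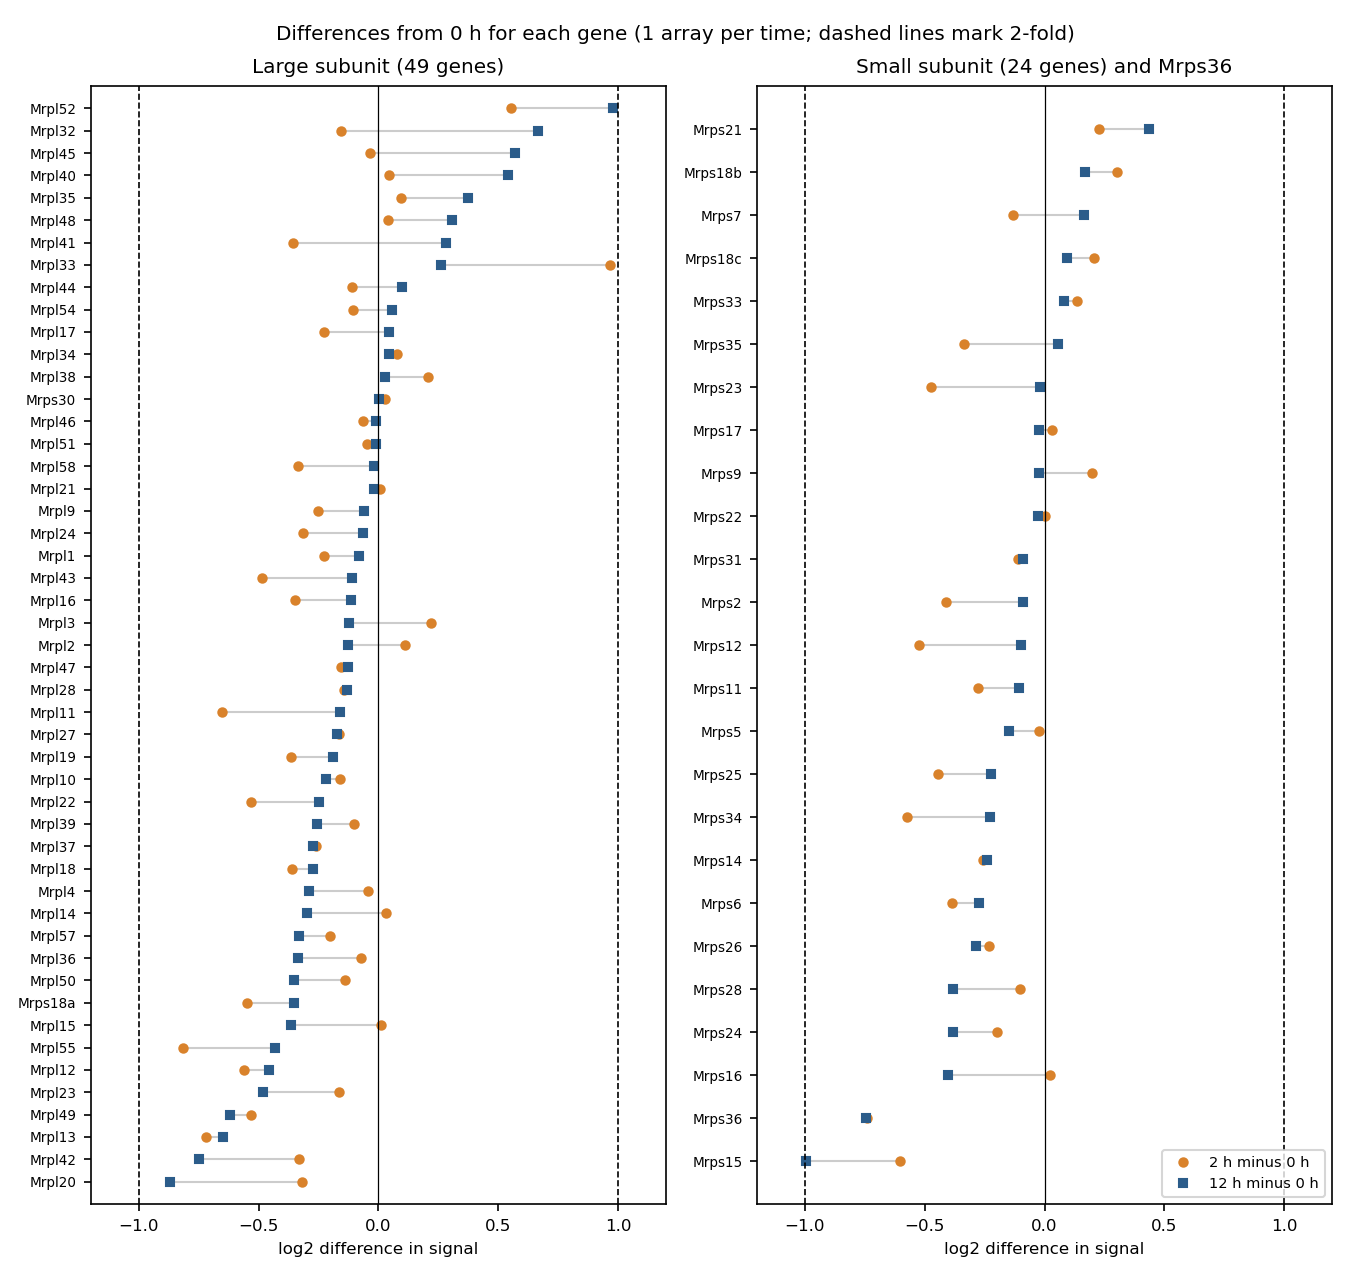
Log2 difference in signal from 0 h on the x axis for each of the 74 genes on the y axis, with 49 large subunit genes on the left and 24 small subunit genes and Mrps36 on the right; circles are 2 h, squares are 12 h, each from 1 array, and dashed lines mark 2-fold. Every point lies inside the dashed lines, with Mrps15 and Mrpl52 at 12 h and Mrpl33 at 2 h closest to them.

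The differences also spread less around their median than those of other genes. For 12 h against 0 h, the central 90% of the 74 genes lay between -0.68 and 0.47, while for the 4089 other named genes with mean signals inside the range of the 74 it lay between -0.81 and 0.75. For 2 h against 0 h the ranges were -0.62 to 0.22 and -0.68 to 0.63. The narrower range was mainly on the higher side at 2 h. Within 1.5-fold of the 0 h array were 91.9% of the 74 genes at 2 h and 89.2% at 12 h, and 94.6% were so from 2 to 12 h. In the genes of like signal these shares were 86.7%, 81.1% and 84.7%. The narrow spread was not particular to the 74 genes. Among measured cytosolic ribosomal protein genes the shares were 93.2%, 95.5% and 95.5%. Among respiratory chain and ATP synthase genes they were 96%, 96% and 92%. Most of the cytosolic ribosomal genes and many of the respiratory genes had signals above the highest of the 74. These 2 families were thus not matched to the 74 genes for signal. The set of like signal was defined after the data were seen, and none of these differences was tested.

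The lowest of the 3 signals was at 2 h for 35 of the 74 genes, at 12 h for 27 and at 0 h for 12. The highest was at 0 h for 45 genes (60.8%), compared with 43.8% of the 7326 named genes above the floor on all arrays. This order leans on the scaling. With the arrays set to one median the highest signal was at 0 h for 34 of 74 genes (45.9%) and for 32.6% of all genes, and the lowest was at 2 h for 23. Under quantile normalization 43 were highest at 0 h and 37 lowest at 2 h.

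**Figure D2:**
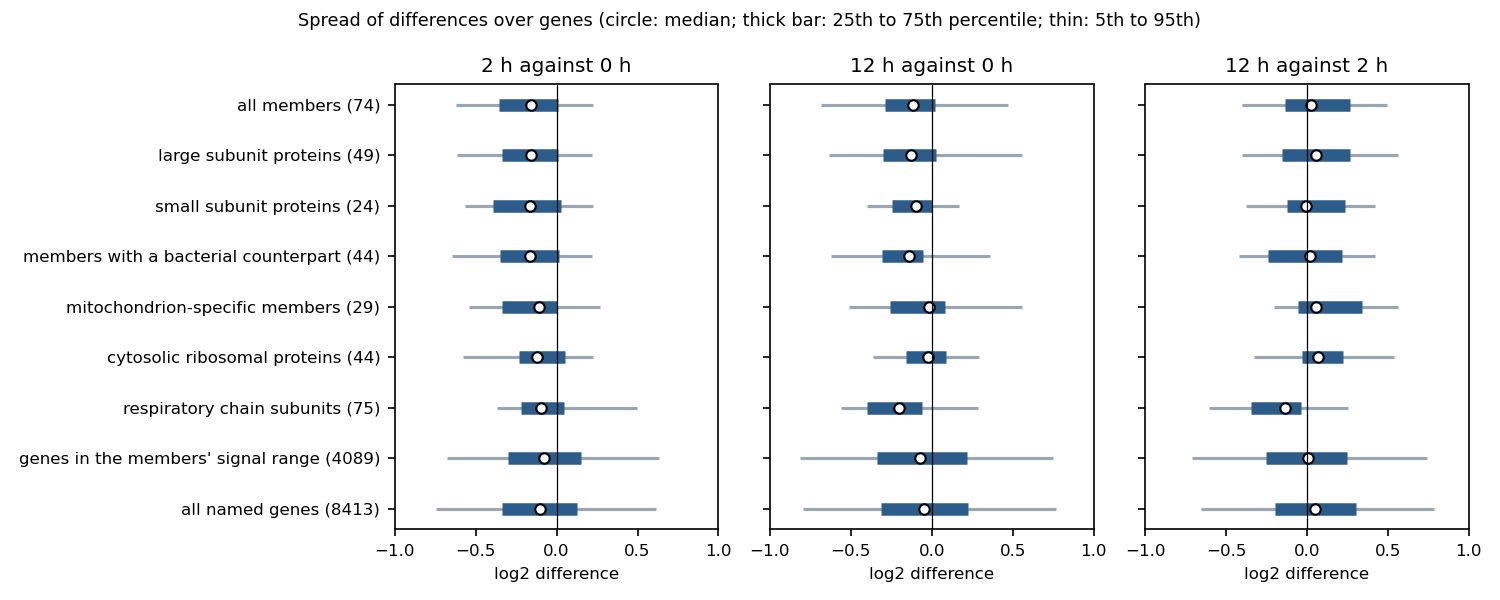
Log2 differences over genes on the x axis for the 3 comparisons, with the number of genes measured at 2 h against 0 h in parentheses beside each set and "members" for the 74 genes; the circle is the median, the thick bar spans the 25th to 75th percentile and the thin line the 5th to 95th. The bars of the mitochondrial ribosomal genes overlap those of all named genes in each comparison, with medians of -0.16, -0.12 and 0.024.

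Several genes lay near the 2-fold limit. Mrps15, the counterpart of bacterial S15, which binds ribosomal RNA early in assembly of the small subunit, had signals of 474 at 0 h, 312 at 2 h and 237 at 12 h. Its signal at 12 h was 1.99-fold lower than at 0 h (log2 difference -0.996) after 1.52-fold at 2 h, just inside the limit, and 2.45% of measured genes had a lower difference. Its second probe set gave 272, 223 and 229, which is 1.19-fold lower at 12 h, so the 2 probe sets point the same way with different sizes. By the median over both, the log2 difference was -0.62. Mrpl20, whose bacterial counterpart L20 is an early assembly protein of the large subunit, had 632, 507 and 345, or 1.83-fold lower at 12 h, from its only probe set. Mrpl42, a mitochondrion-specific protein of the large subunit, had 653, 519 and 389, or 1.68-fold lower at 12 h, and its other probe set was under the floor on every array. By the probe set read, the signals of these 3 genes were in the order 0, 2 and 12 h from high to low. The second probe set of Mrps15 was instead lowest at 2 h.

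A further 3 genes were at least 1.5-fold lower at 12 h by the probe set read. Mrpl13, the counterpart of bacterial L13, had signals of 697, 424 and 445 at 0, 2 and 12 h, 1.65-fold lower at 2 h and 1.57-fold lower at 12 h. Its other probe sets gave 1.07-fold and 1.68-fold lower at 2 h, and 1.17-fold and 1.09-fold lower at 12 h. Mrpl49, specific to mitochondria, had 318, 220 and 207, or 1.54-fold lower at 12 h, while its second probe set was 1.12-fold lower at 12 h. At 2 h the probe sets of Mrpl49 were opposite, 1.44-fold lower and 1.09-fold higher. Mrpl13 and Mrpl49 were lower at 12 h by every measured probe set, but only the brightest one reached 1.5-fold. Mrps36 had 297, 178 and 177, or 1.67-fold lower at 2 h and 1.68-fold at 12 h. Despite its symbol, Mrps36 is known as a subunit of the 2-oxoglutarate dehydrogenase complex of the citric acid cycle, so its values say nothing of the ribosome.

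By the probe set read, other genes were lowest at 2 h and nearer to the 0 h signal at 12 h. Mrpl55, the counterpart of bacterial L31, had signals of 144, 81.8 and 107, the largest decrease at 2 h among the 74 genes at 1.76-fold. Mrpl11, which forms the base of the stalk where translation factors bind, had 524, 333 and 469, or 1.57-fold lower at 2 h. Its probe sets did not point one way at 2 h: of the other measured ones, 1 was 1.10-fold higher and 1 was 1.17-fold lower. A size past 1.5-fold for Mrpl11 at 2 h thus rests on 1 probe set.

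Increases were fewer. Mrpl52, a mitochondrion-specific protein of the large subunit, had signals of 367 at 0 h, 538 at 2 h and 724 at 12 h, or 1.47-fold higher at 2 h and 1.97-fold higher at 12 h. Its other measured probe sets gave 350, 546 and 705, and 263, 434 and 524, which is 2.02-fold and 2.00-fold higher at 12 h. All 3 probe sets rank the times in the order 0, 2 and 12 h, and Mrpl52 was the only one of 25 genes with several measured probe sets in which all of them were at least 1.5-fold from 0 h at 12 h. One more probe set was under the floor on every array. Across the alternatives its log2 difference at 12 h ranged from 0.92 to 1.02, so whether it passes 2-fold depends on the setting. Mrpl33, the counterpart of bacterial L33, had 116, 226 and 139, 1.95-fold higher at 2 h and 1.63-fold lower at 12 h than at 2 h. It was the one gene with a 1.5-fold increase at 2 h, and its other probe set was under the floor on every array.

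From 2 to 12 h, 3 genes were at least 1.5-fold higher. Mrpl32, which is matured by a protease of the inner membrane before it joins the large subunit, had signals of 289, 259 and 458, or 1.77-fold higher at 12 h than at 2 h and 1.59-fold higher than at 0 h. Mrpl41, specific to mitochondria, had 416, 325 and 507, or 1.56-fold higher at 12 h than at 2 h, and its second measured probe set with 219, 156 and 289 was 1.86-fold higher. Mrpl45, which holds the ribosome at the inner membrane near the tunnel exit, had 233, 227 and 346, or 1.52-fold higher at 12 h than at 2 h and 1.49-fold higher than at 0 h. Mrpl40 of the central protuberance was 1.46-fold higher at 12 h than at 0 h, and Mrps21, the counterpart of bacterial S21, 1.35-fold higher. Mrpl32, Mrpl45, Mrpl40 and Mrps21 are each read by 1 probe set only.

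The other genes at the ends of each comparison stayed within 1.5-fold. Mrps18b, one of the relatives of bacterial S18, had signals of 394, 486 and 442, and Mrpl3, whose bacterial counterpart lies near the catalytic centre, had 562, 655 and 516. A second probe set of Mrpl3, with 312, 314 and 323, was nearly level. Mrps16, the counterpart of bacterial S16, had 267, 271 and 202, so its lower signal was seen at 12 h and not at 2 h. Most genes lay between these ends, and some hardly moved: Mrpl51 had 764, 741 and 758 and Mrps22 347, 348 and 341.

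**Figure D3:**
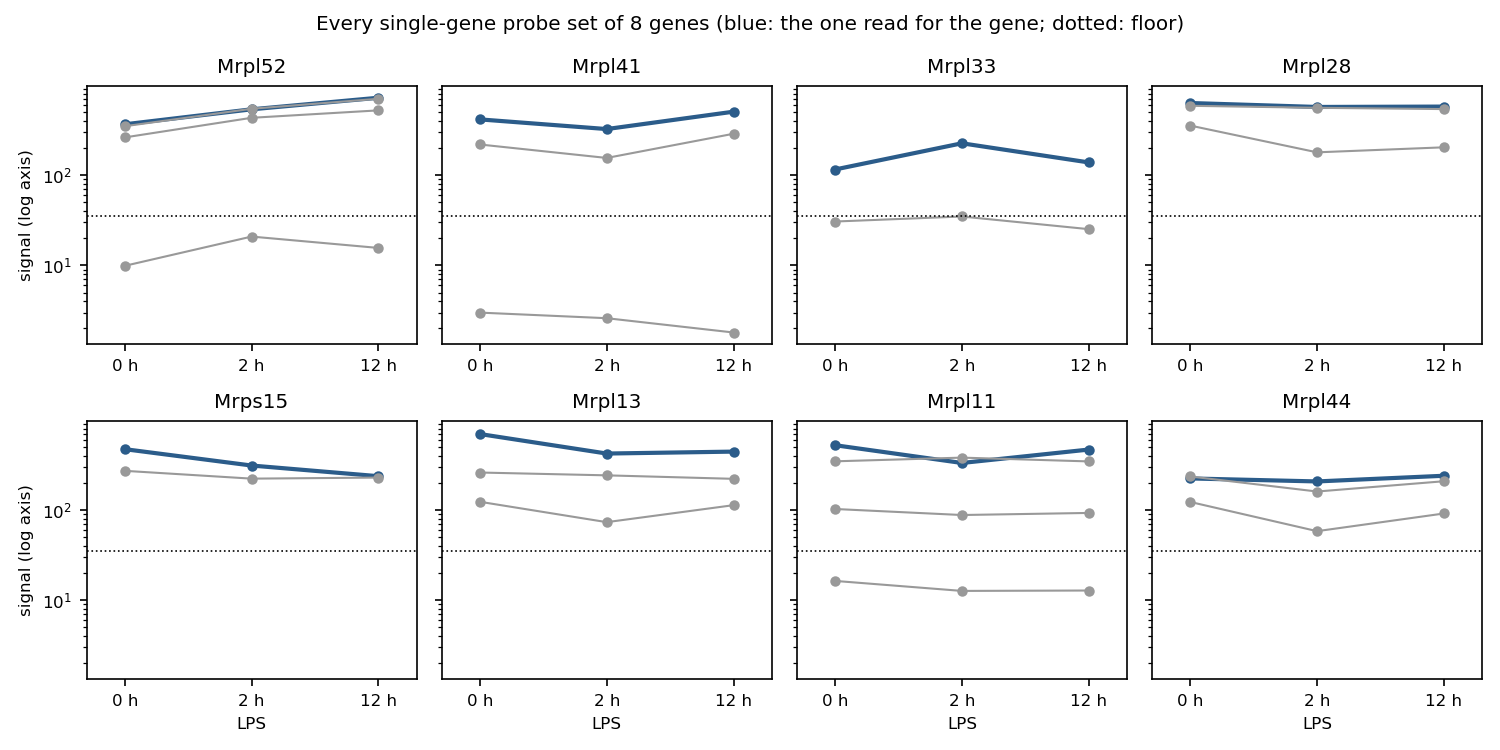
Signal on a log axis at 0, 2 and 12 h of LPS for every single-gene probe set of 8 genes, 1 array per time; the blue line is the probe set read for the gene and the dotted line is the floor of 34.96. The 3 measured probe sets of Mrpl52 climb together, whereas those of Mrpl28, Mrpl11 and Mrpl44 have different shapes.

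Disagreement between probe sets limits the reading of single genes. Of the 33 genes with several probe sets, 24 had at least 2 measured at both 0 and 2 h, and in 16 of these all had the same sign. At 12 h against 0 h it was 15 of 25, and at 12 h against 2 h it was 13 of 25. Probe sets of opposite sign that were at least 1.5-fold apart occurred for Mrpl11, Mrpl49 and Mrpl50 at 2 h, for Mrpl15, Mrpl48 and Mrps9 at 12 h, and for Mrpl11, Mrpl13 and Mrpl34 between 2 and 12 h. Mrpl15, with 7 probe sets, was 1.29-fold lower at 12 h by the brightest of them and 1.18-fold higher by another. Where one of these genes is given a size in such a comparison, it is that of its brightest probe set, and the direction of the gene is not settled there.

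By subunit, the values were alike. The 49 genes of the large subunit, counted with Mrps18a and Mrps30, which sit there despite their names, had a median log2 difference of -0.16 at 2 h and -0.13 at 12 h against 0 h. The 24 genes of the small subunit had -0.16 and -0.094. At least 1.5-fold higher or lower at 12 h were 2 and 4 genes of the large subunit, and 0 and 1 of the small subunit. Over all measured genes these shares were 8.27% and 10.3%. Within 1.5-fold at 12 h were 87.8% of the large subunit genes, 95.8% of the small subunit genes and 81.4% of all measured genes. In groups of this size the background shares amount to few genes, so the counts cannot be told apart from the background. The 44 genes with a bacterial counterpart had a median of -0.14 at 12 h, with 36 below 0 (81.8%). The 29 specific to mitochondria had -0.016, with 17 below 0 (58.6%). Of all measured genes 54.7% were below 0. The gap between the 2 groups was not tested. At 2 h their medians were -0.16 and -0.11.

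Parts of the large subunit were also read separately. The 5 genes around the catalytic core, Mrpl2, Mrpl3, Mrpl4, Mrpl16 and Mrpl27, had log2 differences from -0.35 to 0.22 at 2 h and from -0.29 to -0.12 at 12 h. The 4 stalk genes Mrpl10, Mrpl11, Mrpl12 and Mrpl54 ranged from -0.65 to -0.10 at 2 h and from -0.46 to 0.058 at 12 h. Mrpl12, the stalk protein that recruits elongation factors, had signals of 437, 296 and 318. The 5 genes of the central protuberance (Mrpl18, Mrpl38, Mrpl40, Mrpl46 and Mrpl48) ranged from -0.27 to 0.54 at 12 h, and the 6 around the exit tunnel (Mrpl17, Mrpl22, Mrpl23, Mrpl24, Mrpl45 and Mrpl47) from -0.48 to 0.57. No part had a gene past 2-fold, as none of the 74 genes had, and parts this small would rarely hold one.

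Promoter sequences of the genes nearest to the limits are shown because the nuclear factors NRF1, GABP (an ETS factor) and YY1 are known regulators of genes for mitochondrial proteins. The sequences are from RefSeq, mouse assembly GRCm38.p6, and give the 250 bases before the annotated start of each gene, 5′ to 3′ on the strand of the gene. Capitals mark matches to the strings listed after them. The stretches lie at chr4:126046678-126046927 (plus strand) for Mrps15, chr4:155802628-155802877 (plus) for Mrpl20, chr14:54426659-54426908 (plus) for Mrpl52, chr5:31613701-31613950 (plus) for Mrpl33 and chr13:14613038-14613287 (minus) for Mrpl32.
Mrps15: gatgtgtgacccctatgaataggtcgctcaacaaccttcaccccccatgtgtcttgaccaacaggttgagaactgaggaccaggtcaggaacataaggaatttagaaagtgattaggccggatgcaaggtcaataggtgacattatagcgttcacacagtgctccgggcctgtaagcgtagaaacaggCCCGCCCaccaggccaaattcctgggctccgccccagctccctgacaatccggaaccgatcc
Mrpl20: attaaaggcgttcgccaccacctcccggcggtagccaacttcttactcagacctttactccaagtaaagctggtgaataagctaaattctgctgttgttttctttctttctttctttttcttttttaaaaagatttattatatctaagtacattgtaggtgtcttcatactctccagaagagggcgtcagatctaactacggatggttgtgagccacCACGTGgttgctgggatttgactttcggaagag
Mrpl52: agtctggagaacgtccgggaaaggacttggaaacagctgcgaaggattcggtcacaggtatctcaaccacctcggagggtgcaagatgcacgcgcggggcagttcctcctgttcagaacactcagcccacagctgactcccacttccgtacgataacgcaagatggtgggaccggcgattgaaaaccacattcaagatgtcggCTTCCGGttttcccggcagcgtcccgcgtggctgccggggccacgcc
Mrpl33: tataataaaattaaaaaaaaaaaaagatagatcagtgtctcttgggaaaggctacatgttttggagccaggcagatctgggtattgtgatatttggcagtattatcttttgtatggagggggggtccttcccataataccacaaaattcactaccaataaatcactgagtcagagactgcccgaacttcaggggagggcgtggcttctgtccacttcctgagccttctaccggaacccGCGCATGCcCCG
Mrpl32: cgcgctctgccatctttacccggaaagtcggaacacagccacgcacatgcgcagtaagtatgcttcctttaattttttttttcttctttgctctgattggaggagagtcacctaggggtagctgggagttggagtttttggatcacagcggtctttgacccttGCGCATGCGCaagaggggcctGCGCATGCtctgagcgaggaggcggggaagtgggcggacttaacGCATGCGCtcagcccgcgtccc

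In Mrps15 the capitals are a GC box and in Mrpl20 an E-box. In Mrpl52 they are an ETS string, and a second lies just after the start. In Mrpl33 they are the NRF1 core and the first bases of an ETS string that crosses the start. Mrpl32 holds the NRF1 string at 4 places: on both strands, overlapping, from base -87 to -78 before the start, at -66 to -59 and at -22 to -15. A match describes the letters only and says nothing of binding.

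Windows of 300 bases, 250 before and 50 after the start, were available for 65 of the 74 genes. A total of 6 strings was searched on both strands, and a gene counted when any of its windows held the string. Of the 65 genes, 3 had several windows, while all 27025 genes with a window had 32851 windows. A gene with more windows has more places for a match, and the shares were not tested. The core of the NRF1 motif, GCATGCGC, was in 8 of the 65 genes (12.3%), in 6.68% of 6033 named genes above the floor on all arrays and in 3.05% of 27025 genes with a window. The ETS string CCGGAAG was in 24 (36.9%, against 22.6% and 9.93%), and CCGGAAGT, which contains it, in 11 (16.9%, against 10.4% and 4.31%). The YY1 string AAGATGGCG was in 7 (10.8%, against 4.11% and 1.64%). The E-box CACGTG, bound by Myc with Max, was in 5 (7.69%, against 12.5% and 8.09%). The GC box GGGCGGG was in 29 (44.6%, against 53.1% and 27.9%). One or more of GCATGCGC, CCGGAAG and AAGATGGCG occurred in 34 of the 65 genes (52.3%), against 30.6% of the measured genes. The median GC content of the windows was 58% for the 65 genes and 61% for the measured genes.

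The other genes of mitochondrial gene expression were read from 6 lists, of which 84 genes were on the array with a single-gene probe set. At 2 h, 2-fold or more separated 1 higher and 2 lower genes of 83 measured from 0 h, against 2.09% and 1.68% of all measured genes. At 12 h, 1 of 82 was higher and 1 lower, against 3% and 2.39% of all genes. From 2 to 12 h 1 was higher and 0 lower, against 2.65% and 1.97%. Such counts are near the background. At these shares, a count of 0 or 1 in a single list says little about that list. Their median log2 difference was -0.15 at 2 h and -0.11 at 12 h. These medians are close to those of the ribosomal proteins.

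Mitochondrial ribosome proteins with other names, read together with the insertase Oxa1l, had no gene past 2-fold. The 5 genes read here were Dap3 and Ptcd3, both of the small subunit, Chchd1, Gadd45gip1 and Oxa1l, which receives the nascent chains. Oxa1l is not itself a ribosomal protein but is counted in the medians. The medians of the 5 genes were -0.10 at 2 h and -0.26 at 12 h. Gadd45gip1 had signals of 125, 84.7 and 105, Chchd1 474, 562 and 395, and Oxa1l 119, 90.8 and 85.1. Among 11 translation factors the medians were -0.29 and -0.18. Tufm, the elongation factor that brings tRNAs to the ribosome, had 141, 172 and 258, or 1.83-fold higher at 12 h. Mrrf, which recycles ribosomes, had 187, 124 and 222. Gatb, a subunit of the amidotransferase that makes glutaminyl-tRNA, had 98, 45.9 and 68.7 and was 2.14-fold lower at 2 h, at low signals.

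The 8 mitochondrial tRNA synthetases had medians of -0.35 at 2 h and -0.22 at 12 h, and 1 was past 2-fold. Tars2, for threonine, had signals of 325, 221 and 156, or 2.08-fold lower at 12 h, and did not reach 2-fold with a pseudocount, without suffixed probe sets or when its 2 probe sets were summarised by their median. Sars2, for serine, had 92.1, 67.1 and 56.2, and Hars2, for histidine, 121, 82 and 92.8. Of 23 assembly and RNA modification factors none was past 2-fold, with medians of -0.15 and -0.11. Tfb1m, which methylates the small subunit RNA, had 104, 82.8 and 150, Spg7, part of the protease that matures Mrpl32, 76.5, 68.4 and 47.4, and the pseudouridine synthase relative Rpusd4 216, 140 and 173. Of 26 genes of mitochondrial DNA transcription and RNA none was past 2-fold, with medians of -0.10 and 0.056. Slirp, which stabilises mitochondrial messenger RNAs, had 726, 570 and 1084, Pus1 326, 276 and 497, and the polymerase subunit gene Polg2 105, 66.9 and 63.2.

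Regulators of mitochondrial biogenesis were the list with large single differences. Myc, a transcription factor known to act on ribosome genes, had signals of 59.1, 656 and 533. Ppargc1b, a coactivator of nuclear genes for mitochondria, had 112, 26 and 126, with the 2 h signal under the floor, so it was at least 3.21-fold lower at 2 h and at least 3.60-fold higher at 12 h than at 2 h. Gabpa, the DNA-binding subunit of GABP, had 290, 220 and 170, or 1.71-fold lower at 12 h, and Nfe2l2, a regulator of antioxidant genes, had 726, 661 and 446. Nrf1 had 118, 125 and 96.1 and was within 1.5-fold at both times. By its only probe set, Myc was 11.1-fold higher at 2 h and 9.02-fold at 12 h. Its relation to the 74 ribosomal genes was not tested.

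**Figure D4:**
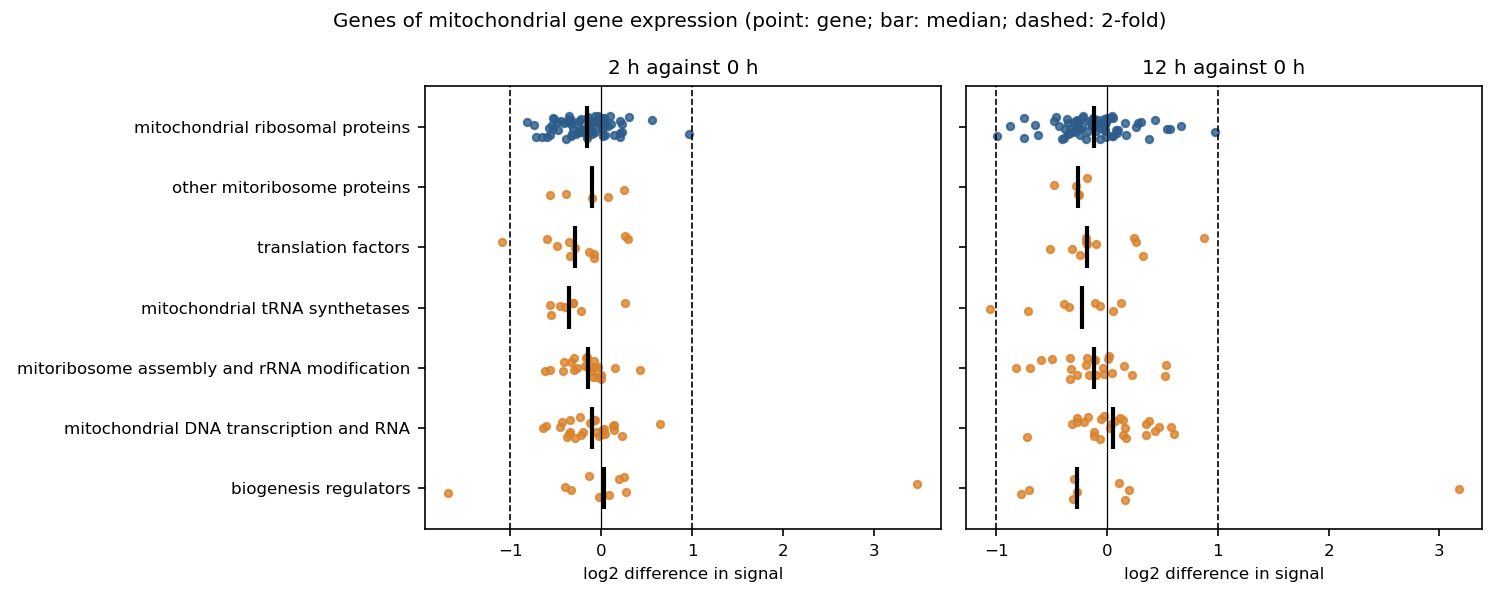
Log2 difference in signal on the x axis at 2 h (left) and 12 h (right) against 0 h; each point is a gene, black bars are medians and dashed lines mark 2-fold. The medians of the 74 ribosomal genes (-0.16 and -0.12) lie among those of the other lists, and Myc is the point on the far right.

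Related gene families were read for comparison. The 44 measured genes for cytosolic ribosomal proteins had medians of -0.12 at 2 h, -0.021 at 12 h and 0.069 from 2 to 12 h. The 75 for respiratory chain and ATP synthase subunits, most of which assemble around the products of the mitochondrial ribosome, had -0.097, -0.20 and -0.13. From 2 to 12 h, 34 of 74 mitochondrial ribosomal genes (45.9%) and 58 of 75 respiratory genes (77.3%) had a lower signal, against 44.2% of all measured genes. The difference between the families was not tested.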

How the data were processed

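Expression was measured on 3 arrays, 1 each at 0, 2 and 12 h of LPS, and samples were grouped by their titles. Values are linear intensities of probe sets as the authors deposited them. How they were summarised and scaled is not stated in the labels. The deposited 2% trimmed mean was 150.05 on each array, so arrays had been set to one scale and a change in total mRNA would not be seen. Per the labels' protocols, 5 µg of total RNA was used. The number of arrays limits the precision.

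Of 22690 probe sets, 64 controls were set aside and 1555 were unlisted in the platform annotation. It assigned 20380 to a single gene, and the 691 it assigned to more than 1 gene were left out. Of the 20380, 20351 probe sets had a gene identifier that matched RefSeq GRCm38.p6, used for names and promoters. Values of the probe sets other than controls were rescaled to one trimmed mean (largest change 0.16%), floored at 34.96 and log2 transformed. The brightest probe set by mean log2 signal represented a gene. Genes named are those at least 1.5-fold apart, the 5 highest and lowest of each comparison, those with discordant probe sets, and 3 of each other list; further examples were chosen after their values were seen. Members, lists and promoter strings were chosen with earlier results of these data known. Counting was tested on simulated data with changes well past 2-fold in bright genes and little noise. That test says nothing of calls near 1.5-fold or 2-fold. Alternatives covered scaling, floor, pseudocount (32), probe set choice and fold (1.5, 3). Python 3.11.15, numpy 2.4.6, pandas 2.3.3 and scipy 1.17.1 were used.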

Additional observations from a re-analysis of the deposited data

How the results depend on the processing

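With 1 array per time no replicate could be left out. No paired analysis was possible because each time has 1 array and the labels give no replicate numbers. Across the alternatives the median log2 difference of the ribosomal genes ranged from -0.16 to -0.015 at 2 h, nearest to 0 with median scaling, from -0.15 to -0.072 at 12 h, and from -0.074 to 0.069 from 2 to 12 h, where the sign changed. Of the 0 genes past 2-fold, 1 was higher at 2 h with median scaling and with quantile normalization (Mrpl33), and 1 was lower at 2 h without suffixed probe sets (Mrpl44). At 12 h 1 was higher with median scaling and by the median over probe sets (Mrpl52), and by that median 1 was higher from 2 to 12 h (Mrps25, which has probe sets near the floor). With a fold of 1.5 the counts higher and lower were 1 and 5 at 2 h, 2 and 6 at 12 h, and 3 and 1 from 2 to 12 h. For the 6 other lists these were 2 and 6 at 2 h, 3 and 8 at 12 h, and 6 higher from 2 to 12 h. In those lists the count higher was 0 without suffixed probe sets at 2 and 12 h, 2 with a 20th percentile floor (2 h, and 2 to 12 h) and 0 with a 60th percentile floor (2 to 12 h). The count lower at 2 h was 1 with median scaling, quantile normalization, a pseudocount and a fold of 3, and 0 with a 60th percentile floor. The count lower at 12 h was 0 with a pseudocount, the median over probe sets, no suffixed probe sets and a fold of 3, and from 2 to 12 h it was 1 without suffixed probe sets. Of the values of named genes, 15 moved past the SD of differences among probe sets of a gene and 519 did not. Except where a setting removes probe sets, the cause was not tested.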

Other observations

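Some probe sets that were not the brightest of their gene held larger differences than the one read. For Mrpl44, which belongs to the large subunit, the dimmest of 3 measured probe sets had signals of 123, 58.4 and 91.7 at 0, 2 and 12 h, or 2.11-fold lower at 2 h. The brightest was 1.08-fold lower at 2 h, and the third, with 236, 161 and 209, was 1.47-fold lower. All 3 were lower at 2 h than at 0 h, by different sizes. For Mrpl28, the counterpart of bacterial L28, the dimmest of 3 probe sets had 355, 179 and 204, or 1.98-fold lower at 2 h, while the others were 1.11-fold and 1.05-fold lower. Mrpl19, counterpart of bacterial L19, was 1.29-fold lower at 2 h by its brightest probe set and 1.79-fold lower by another of nearly equal signal at 0 h (296 and 276). In these 3 genes the brightest probe set gave the smallest difference at 2 h in Mrpl44 and Mrpl19, and a size between the others in Mrpl28. These examples were chosen after their values were seen.

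Of the 127 probe sets of the 74 genes, 108 were above the floor on all arrays and 13 on none.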
